A study of Mus musculus with 8 samples.

Results

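The 3 arrays of ICC-DMP cells were set against the 2 arrays of tunica muscularis (the muscle layers of the bowel), which together are 5 of the 8 arrays of the series. ICC are interstitial cells of Cajal, and the letters DMP and MY, which the labels do not spell out, are taken in the sense usual in the field, deep muscular plexus and myenteric plexus. BALB/c mice of 6 to 9 days of age gave all the RNA, from small intestine, and the labels name no treatment and no engineered allele in any group. The tissue is the whole coat, with muscle, nerves, vessels and serosa besides its own interstitial cells, so it is the ICC-DMP surroundings and not a sample free of them. The other 3 arrays hold ICC-MY cells, the class most like ICC-DMP; they share in the estimate of the spread and are quoted where ICC-DMP are compared with them. The labels do not say how either cell class was isolated, which sex the mice had or how many gave a sample, so p-values measure differences against the spread between these samples.

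Interstitial cells of Cajal carry the receptor tyrosine kinase KIT and the calcium-activated chloride channel ANO1. The myenteric class forms a network around the myenteric ganglia and generates the slow waves that pace the gut. The deep muscular class lies in the inner part of the circular muscle, close to the endings of enteric motor neurons, and is known mainly for responses to their transmitters. Genes are therefore taken in order from receptors through second messengers to channels and calcium handling, before transcription factors, growth factors and matrix.

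Expression is given as deposited log2 values, 1 probe set for each of 18193 genes, and the difference printed for a gene is the ICC-DMP mean minus the tissue mean on that log2 scale, with its standard error (SE, 3 against 2 arrays). A gene is said to be called, to rise or to fall where limma's test gave an adjusted p under 0.05 over all genes. By that rule 2009 genes were called, 677 higher and 1332 lower in ICC-DMP, which is 11% of the genes tested, 3.72% higher and 7.32% lower; these shares are the background for every count of members below. The median difference over all genes was -0.04. The ICC-DMP and tissue arrays of a gene did not overlap for 38.5% of all genes. Array medians lay between 4.18 and 4.30. Tissue replicate 1 had a narrower range than tissue replicate 2, with a mean of 10.16 against 11.14 over the genes whose mean level lay from 10 to 12, and without it 395 genes were called higher and 1319 lower. The difference between 3′ and 5′ actin probe sets, a measure of how far RNA or its copies reach from the 3′ end, was 2.92, 3.08 and 4.66 in the ICC-DMP arrays and 2.53 and 3.53 in the tissue arrays; its part in the results was not tested. Genes are compared only with themselves, because probe sets differ in brightness.

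All 4 genes that mark the cells were higher in ICC-DMP than in the muscle coat, with no overlap between arrays. Kcnq5, a voltage-gated potassium channel, read 9.25, 9.02 and 9.88 in the ICC-DMP arrays and 4.14 and 4.45 in the tissue arrays. Its difference of 5.09 ± 0.27 (adjusted p = 1.22e-05) is 34.1-fold, and ICC-MY stood near the tissue at 5.10, 4.85 and 5.30. That size belongs to the brightest Kcnq5 probe set, and with the mean of its probe sets the difference was 2.73 (adjusted p = 4.08e-05). Thbs4, a secreted matrix glycoprotein, read 12.83, 12.98 and 12.81 in the ICC-DMP arrays and 9.14 and 9.38 in the tissue arrays, a difference of 3.61 ± 0.31 (adjusted p = 0.000165). Kit read 11.07, 11.34 and 10.84 in ICC-DMP against 7.20 and 8.43 in the tissue, and its difference was 3.27 ± 0.50 (adjusted p = 0.00366). Ano1 read 12.92, 13.20 and 13.22 in ICC-DMP against 10.29 and 11.76 in the tissue, and the difference of 2.09 ± 0.49 (adjusted p = 0.0305) was the least firm of the 4. Its adjusted p was 0.0822, 0.0995 and 0.0945 without ICC-DMP replicates 1, 2 and 3, 0.171 without tissue replicate 1 and 0.0622 with a variance trend. Against ICC-MY the 4 markers fell into 2 kinds. Kcnq5 and Thbs4 were higher in ICC-DMP by 4.30 ± 0.24 (adjusted p = 3.3e-05) and 2.71 ± 0.28 (adjusted p = 0.000497). Kit and Ano1 differed from ICC-MY by -0.65 ± 0.45 (adjusted p = 0.553) and 0.06 ± 0.44 (adjusted p = 0.972), and neither was called.

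**Figure D1:**
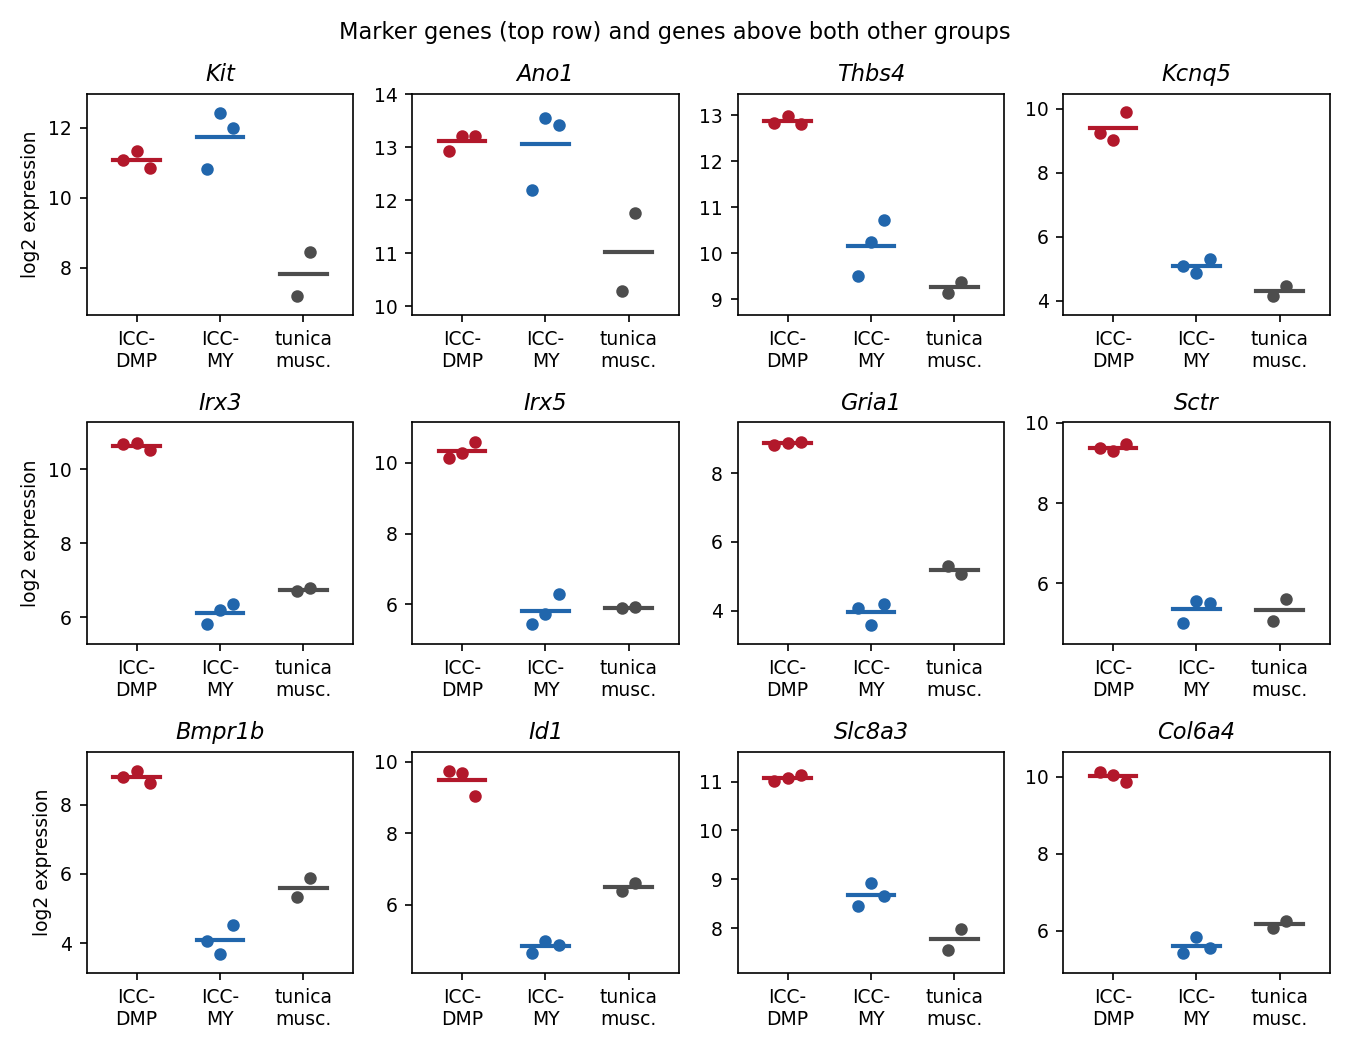
Log2 values in each array of the 4 marker genes and of 8 genes that stood above both the tissue and ICC-MY (vertical axes, log2 expression, each panel on its own scale). Points are arrays and bars group means, for 3, 3 and 2 arrays. Kit and Ano1 are high in both cell classes, while the ICC-DMP points of Kcnq5 lie above every other array. Those of the 8 further genes do so too, but these genes were picked for standing above both other groups.

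Among 13 measured genes on a wider list of ICC markers, 5 were called higher and 0 lower, with a median difference of 0.64. The fifth was Elovl6, a fatty acid elongase, at 1.50 ± 0.37 (adjusted p = 0.0369); its adjusted p was 0.117, 0.0984 and 0.107 without ICC-DMP replicates 1, 2 and 3, 0.171 and 0.0846 without tissue replicates 1 and 2, and 0.0511 with a variance trend. The count was 3 without any 1 of the ICC-DMP arrays or tissue replicate 1 and with a variance trend. Several listed genes did not separate ICC-DMP from the coat. Prkcq, a protein kinase C isoform, read 7.11, 7.18 and 6.29 in ICC-DMP against 6.42 and 7.43 in the tissue, and 10.61, 12.04 and 11.50 in ICC-MY. Edn3, an endothelin ligand, read 5.94, 5.91 and 5.05 in ICC-DMP against 5.59 and 5.63 in the tissue, and 8.56, 9.999 and 9.20 in ICC-MY. Slc12a2, a sodium-potassium-chloride cotransporter, differed from tissue by -0.27 ± 0.52 (adjusted p = 0.875) and from ICC-MY by -2.44 ± 0.47 (adjusted p = 0.0136); against tissue it was called lower without both arrays of narrow range (adjusted p = 0.0422) and by another probe set, at -1.14 (adjusted p = 0.0153). The T-type calcium channel gene Cacna1h read 4.80, 4.63 and 5.37 in ICC-DMP, below the tissue arrays at 5.66 and 5.78 but without a call (adjusted p = 0.287, or 0.0106 with the replicate number as a block), and 7.59, 8.23 and 8.96 in ICC-MY. All 4 of these genes were higher in every ICC-MY array than in any ICC-DMP array.

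Receptor genes moved both ways. Of 37 measured neurotransmitter and peptide receptor genes 3 were called higher and 6 lower, 24.3% against the 11% of all genes, and the median difference was -0.13. Gria1, a subunit of AMPA glutamate receptors, read 8.83, 8.87 and 8.91 in ICC-DMP against 5.31 and 5.06 in the tissue, and the difference was 3.69 ± 0.20 (adjusted p = 1.46e-05), or 12.9-fold. ICC-MY lay below the tissue at 4.07, 3.59 and 4.202, and another Gria1 probe set gave the same call. Htr4, the serotonin receptor that couples to adenylate cyclase, read 6.79, 6.96 and 6.79 in ICC-DMP against 4.76 and 4.59 in the tissue, a difference of 2.17 ± 0.14 (adjusted p = 3.84e-05), with 4.17, 4.04 and 4.11 in ICC-MY; its other probe set read near 2.85 and 2.87 on average in the 2 groups and was not called. The other Htr genes measured went down or did not pass. Htr3a, a serotonin-gated ion channel subunit, read 4.55, 4.57 and 4.46 in ICC-DMP against 6.79 and 7.82 in the tissue. Htr2b, which couples to phospholipase C, read 5.29, 4.93 and 5.01 in ICC-DMP against 6.94 and 7.90 in the tissue. Both fell, by 2.78 and 2.34 on the log2 scale, while Htr1b and Htr7 lay within 0.11 of the tissue, with a dimmer Htr1b probe set called lower, at -0.73 (adjusted p = 0.0263). Grik1, a kainate receptor subunit, fell by 2.38 and Calcrl, which forms receptors for calcitonin gene-related peptide and adrenomedullin, by 2.40. The neurokinin 1 receptor gene Tacr1, widely used to stain ICC-DMP, read 4.43, 4.43 and 4.15 in ICC-DMP against 4.21 and 3.95 in the tissue and was not called (adjusted p = 0.461); at values this low the array does not show whether the transcript was present. The count of lower receptors was 10 with a variance trend.

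Sctr, the secretin receptor, was outside the receptor list and was among the largest differences from both the coat and ICC-MY. It read 9.37, 9.30 and 9.48 in ICC-DMP against 5.06 and 5.62 in the tissue, and 5.01, 5.55 and 5.51 in ICC-MY, a difference from tissue of 4.05 ± 0.23 (adjusted p = 1.71e-05) and from ICC-MY of 4.02 ± 0.20 (adjusted p = 2.77e-05). Klotho (Kl), a membrane protein that serves as a co-receptor for fibroblast growth factor, read 7.66, 7.24 and 6.83 in ICC-DMP against 3.32 and 3.52 in the tissue and 3.99, 3.97 and 4.13 in ICC-MY. Its difference from tissue was 3.82 ± 0.23 (adjusted p = 2.54e-05), and its other probe set was not called. Adgrf5, an adhesion G protein-coupled receptor, went the other way. It read 3.67, 3.96 and 3.78 in ICC-DMP against 7.01 and 7.22 in the tissue and 7.01, 6.90 and 5.13 in ICC-MY, so the lowest ICC-MY array was nearer to ICC-DMP than the other two were.

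Downstream of such receptors, genes of cyclic nucleotide metabolism were more often higher than lower. Of 29 measured genes for nitric oxide and cyclic nucleotide signalling 8 were higher and 3 lower, 37.9% against 11%, with a median difference of 0.52. Adcy3 and Adcy9, which encode adenylate cyclases, read 9.71, 9.56 and 9.82 in ICC-DMP against 7.57 and 7.54 in the tissue and 9.52, 9.51 and 9.91 in ICC-DMP against 7.28 and 7.64 in the tissue respectively. Their differences were 2.14 ± 0.18 (adjusted p = 0.000141) and 2.19 ± 0.32 (adjusted p = 0.00302), and the other 3 adenylate cyclase genes measured (Adcy5, Adcy6 and Adcy7) were not called, at -0.93 to 0.65. Adcy7 was called lower without tissue replicate 1, at -1.61 (adjusted p = 0.00283), without both arrays of narrow range (adjusted p = 0.000903) and after quantile normalization (adjusted p = 0.00931). Adcy6 was called higher after quantile normalization (adjusted p = 0.0406), and another Adcy5 probe set was called lower, at -0.82 (adjusted p = 0.0416). Phosphodiesterases break cyclic nucleotides down. Pde9a, which is selective for cyclic GMP, read 9.46, 9.47 and 9.37 in ICC-DMP against 6.41 and 6.96 in the tissue, a difference of 2.75 ± 0.27 (adjusted p = 0.000337). Pde7b, selective for cyclic AMP, read 9.98, 10.52 and 9.79 in ICC-DMP against 7.20 and 8.21 in the tissue, a difference of 2.39 ± 0.36 (adjusted p = 0.00321). Pde3b rose by 1.81 ± 0.27 (adjusted p = 0.00319), and 5 of 13 phosphodiesterase genes were higher in all. Pde1c, a calcium- and calmodulin-dependent member, fell by 1.97, though its 5 other probe sets were not called. Nos1, the neuronal nitric oxide synthase, fell by 2.58, from 8.82 and 8.20 in the tissue to 5.83, 5.88 and 6.06. It is also 1 of the 26 measured enteric neuron markers, of which 23 were lower. Nitric oxide acts on a guanylate cyclase, which was not called: its subunits Gucy1a1 and Gucy1b1 differed by 0.70 ± 0.34 (adjusted p = 0.286) and 0.58 ± 0.52 (adjusted p = 0.651), and the cyclic GMP-dependent kinase Prkg1 by 0.64 ± 0.42 (adjusted p = 0.477). Gucy1a1 was called higher without tissue replicate 2, at 1.30 (adjusted p = 0.0261), and with the mean of probe sets, at 1.02 (adjusted p = 0.0115), and both its other probe sets were called higher, at 1.25 (adjusted p = 0.0485) and 1.12 (adjusted p = 0.0064). Both guanylate cyclase genes were higher than in ICC-MY, by 2.14 ± 0.30 (adjusted p = 0.00282) and 2.12 ± 0.47 (adjusted p = 0.0266). The count of lower genes was 5 in the fit of the 5 arrays alone, with array weights, with a variance trend and without tissue replicate 1, and 6 without both arrays of narrow range.

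Prostanoid genes, which include receptors coupled to cyclic AMP, counted 2 higher and 1 lower of 16, 18.8% against 11% of all genes. Ptgir, the prostacyclin receptor, read 5.64, 5.89 and 5.92 in ICC-DMP against 4.59 and 4.31 in the tissue, a difference of 1.36 ± 0.18 (adjusted p = 0.00193), and ICC-MY were lower than the tissue at 3.31, 3.47 and 3.73. Ptger4, a prostaglandin E receptor, read 7.21, 6.82 and 7.31 in ICC-DMP against 8.48 and 9.42 in the tissue, a difference of -1.84 ± 0.31 (adjusted p = 0.00652), and its other probe set was not called. The third called gene, Hpgd, which breaks prostaglandins down, differed by 1.88 ± 0.41 (adjusted p = 0.0208); its adjusted p was 0.0822 and 0.08 without ICC-DMP replicates 1 and 2 and 0.12 without tissue replicate 1. The lower calls were 2 without ICC-MY replicate 1 or tissue replicate 1, and with the replicate number as a block the counts were 4 higher and 3 lower. They were 3 lower after quantile normalization and without both arrays of narrow range, and 2 lower with the mean of probe sets or a variance trend. With dim genes removed 9 genes were left, of which 1 was higher.

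Of 28 measured protein kinase C and G protein genes 3 rose and 7 fell. Rgs10, a regulator of G protein signalling, read 12.38, 12.79 and 12.18 in ICC-DMP against 9.08 and 9.91 in the tissue, a difference of 2.96 ± 0.46 (adjusted p = 0.00424). Gna14, a G protein alpha subunit of the family that acts on phospholipase C, read 8.55, 8.74 and 8.47 in ICC-DMP against 6.04 and 5.96 in the tissue, a difference of 2.58 ± 0.22 (adjusted p = 0.000166); ICC-MY were lower than the tissue at 3.98, 4.59 and 4.68. Prkcb fell by 2.75 and Rgs4 fell by 2.003. Both read under 6 in every ICC-DMP array. When dim genes, those under 6 on at least 7 of the 8 arrays, were removed, 23 genes were left, of which 4 were lower.

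Potassium channel genes were, as a list, more often lower than higher. Of 45 measured, 3 rose and 10 fell, and 31 of the 45 had ICC-DMP and tissue means that were both under 6. Besides Kcnq5, the main rise was in Kcnh2, the ERG channel, which read 10.003, 10.003 and 10.83 in ICC-DMP against 7.23 and 7.59 in the tissue, a difference of 2.87 ± 0.42 (adjusted p = 0.00311). ICC-MY read 8.70, 9.35 and 10.17 for Kcnh2, and the difference between the classes was 0.87 ± 0.38 (adjusted p = 0.269) and not called. Kcnq3, from the same family as Kcnq5, went the opposite way, from 7.25 and 7.26 in the tissue to 4.10, 3.97 and 4.31, though no other Kcnq3 probe set was called. Kcnab1, a potassium channel beta subunit, and Kcnip1, which binds Kv4 channels, fell by 2.27 and 2.09. Kcnma1, the large-conductance calcium-activated channel, was not called at -0.53 ± 0.24 (adjusted p = 0.261); a dimmer probe set was called lower, at -0.87 (adjusted p = 0.0375). With dim genes removed 13 potassium channel genes were left, of which 4 were lower.

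Of 25 measured genes of calcium stores and extrusion 4 were higher and 4 lower, a share of 32% against 11%, with a median difference of 0.09. Slc8a3, a sodium-calcium exchanger, read 11.01, 11.08 and 11.14 in ICC-DMP against 7.56 and 7.99 in the tissue, a difference of 3.30 ± 0.19 (adjusted p = 2.09e-05) or 9.87-fold, with 8.45, 8.93 and 8.67 in ICC-MY. That size belongs to its brightest probe set, and no other Slc8a3 probe set was called. Its relative Slc8a1 was not called, at 0.22 ± 0.27 (adjusted p = 0.77). Atp2a3, the SERCA3 calcium pump, read 9.30, 9.28 and 9.96 in ICC-DMP against 6.42 and 7.01 in the tissue and differed by 2.80 ± 0.46 (adjusted p = 0.00544); ICC-MY read 9.06, 10.56 and 10.50. The SERCA2 gene Atp2a2 was not called by its brightest probe set, at 0.82 ± 0.44 (adjusted p = 0.356). Of its 5 other probe sets 2 were called higher, at 4.35 (means of 9.996 against 5.65, adjusted p = 3.1e-05) and 1.15 (adjusted p = 0.0162), and the gene was called with the mean of probe sets (adjusted p = 0.0298) and after quantile normalization (adjusted p = 0.0158). Hrc, which encodes a calcium-binding protein of the sarcoplasmic reticulum, rose by 2.02 ± 0.28 (adjusted p = 0.00209), and was lower than in ICC-MY by -1.56 ± 0.25 (adjusted p = 0.00527). Phospholamban (Pln), the SERCA inhibitor, read 12.53, 12.94 and 12.59 in ICC-DMP against 10.34 and 11.41 in the tissue, and its difference was 1.81 ± 0.30 (adjusted p = 0.00592). ICC-MY were below the tissue in Pln, at 8.93, 9.28 and 9.05. Among the falls were Plcb1, a phospholipase C, by 2.35, Itpr3, an inositol trisphosphate receptor, by 1.68, and the calcium-storing calsequestrin Casq2 by 1.45. The number higher was 7 with the replicate number as a block and 8 after quantile normalization, and the number lower was 9 without both arrays of narrow range.

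Of 26 measured genes for calcium entry 5 rose and 3 fell, with a median difference of 0.00. Cacna1d, an L-type calcium channel, read 7.34, 7.23 and 7.51 in ICC-DMP against 5.93 and 5.61 in the tissue, a difference of 1.59 ± 0.19 (adjusted p = 0.000897), with 7.33, 7.35 and 7.70 in ICC-MY. Gem, a small GTPase known to restrain voltage-gated calcium channels and outside the list, read 10.65, 11.07 and 10.34 in ICC-DMP against 7.28 and 7.70 in the tissue, a difference of 3.19 ± 0.26 (adjusted p = 0.000131), and ICC-MY were lower than the tissue at 6.08, 6.65 and 6.43. Cacna2d3, an auxiliary subunit, fell by 1.45. The 5 rises became 3 without ICC-DMP replicate 2 and 1 without tissue replicate 1, and the falls became 6 with the replicate number as a block or without both arrays of narrow range.

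Slc26a7, an anion exchanger outside the channel lists, read 8.82, 8.77 and 8.004 in ICC-DMP against 4.98 and 5.61 in the tissue. The difference from tissue was 3.24 ± 0.30 (adjusted p = 0.000247), ICC-MY were lower than the tissue at 3.94, 3.74 and 3.49, and the other probe set was not called. Slc4a4, a sodium bicarbonate cotransporter, fell by 2.16; its values were 6.58, 6.31 and 5.62 in ICC-DMP against 8.06 and 8.60 in the tissue, and 9.01, 9.78 and 9.58 in ICC-MY, and its 4 other probe sets were not called.

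Developmental transcription factors held some of the largest differences. Of 93 measured genes on this list 16 were higher and 10 lower, 28% against 11%. Irx3 and Irx5, neighbouring homeobox genes of the Iroquois family, had the widest gaps. Irx5 read 10.15, 10.28 and 10.59 in ICC-DMP against 5.88 and 5.91 in the tissue, and ICC-MY overlapped the tissue at 5.42, 5.73 and 6.28. Its difference from tissue was 4.44 ± 0.25 (adjusted p = 1.75e-05), or 21.8-fold. Irx3 read 10.69, 10.72 and 10.52 in ICC-DMP against 6.71 and 6.77 in the tissue and 5.81, 6.20 and 6.35 in ICC-MY, a difference from tissue of 3.90 ± 0.19 (adjusted p = 8.14e-06). Irx6 passed at a low level with 0.996 ± 0.17 (adjusted p = 0.00574), while Irx1, Irx2 and Irx4 were not called, at -0.22 to 0.09. Sox11, a SOX family factor of progenitor cells, read 10.30, 10.57 and 10.44 in ICC-DMP against 7.74 and 7.68 in the tissue, a difference of 2.73 ± 0.22 (adjusted p = 0.000123), and ICC-MY were lower than the tissue at 6.32, 6.66 and 7.08. The forkhead genes Foxf1 and Foxf2, factors of the gut mesenchyme, rose by 2.03 ± 0.21 (adjusted p = 0.000424) and 2.04 ± 0.24 (adjusted p = 0.000998). They differed in ICC-MY: Foxf1 read 9.11, 9.31 and 9.43 there, level with ICC-DMP at 9.47, 9.39 and 9.30, whereas Foxf2 read 4.57, 3.84 and 3.89, below every ICC-DMP and tissue array. In both genes the second probe set was not called.

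Homeobox genes of the Hoxb cluster, which mark position along the body axis, were higher for 4 of 7 measured members and lower for 0. These were Hoxb6, Hoxb3, Hoxb2 and Hoxb4, with differences of 2.04, 1.69, 1.67 and 1.48, and the 3 others, Hoxb5, Hoxb7 and Hoxb9, lay between -0.51 and 0.09. With the replicate number as a block Hoxb5 was called lower (adjusted p = 0.0313). Hoxb6 read 8.75, 9.12 and 8.43 in ICC-DMP against 6.53 and 6.92 in the tissue, and 6.21, 7.22 and 6.46 in ICC-MY. Against ICC-MY, a comparison that shares the ICC-DMP arrays, the 4 differences were 2.14, 1.91, 1.87 and 1.004 in the same order. The other Hox clusters had 1 higher and 1 lower call among 13 measured genes, with 2 higher and 2 lower without ICC-MY replicate 1, and 2 higher and 3 lower without both arrays of narrow range. Gata6, a zinc finger factor of gut and heart, fell from 6.34 and 6.75 in the tissue to 4.12, 4.13 and 4.44, a difference of -2.31 ± 0.31 (adjusted p = 0.00183). Nr2f1, a nuclear receptor of neural and vascular development, fell by 1.62. The 10 lower calls on the list were 6 without tissue replicate 2 and 16 without both arrays of narrow range. With dim genes removed 49 genes were left, of which 3 were lower.

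Among 98 measured morphogen and growth factor genes 22 rose and 22 fell, 44.9% against 11%, with a median difference of -0.03. With dim genes removed 70 were left, of which 13 fell. Bone morphogenetic proteins (BMPs) signal through serine-threonine kinase receptors and SMAD proteins. Cells that receive the signal typically switch on Id genes and the inhibitory Smad6 and Smad7, and secreted antagonists such as noggin and chordin-like 1 bind the ligand. Members of all these kinds stood higher in ICC-DMP; the pathway was picked out of the longer list after its values were seen. Of 17 measured members 10 were called higher and 2 lower.

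The receptor gene Bmpr1b read 8.82, 8.98 and 8.63 in ICC-DMP against 5.32 and 5.88 in the tissue, a difference of 3.21 ± 0.27 (adjusted p = 0.00015), or 9.24-fold. ICC-MY were lower than the tissue at 4.07, 3.69 and 4.53. The other receptor genes, Bmpr1a and Bmpr2, were not called, at 0.29 and 1.12, by their brightest probe sets. Bmpr2 was called with the replicate number as a block (adjusted p = 0.00688), after quantile normalization (adjusted p = 0.00805) and with the mean of probe sets (adjusted p = 0.00454), and both its other probe sets were called higher, at 1.77 (adjusted p = 0.00983) and 0.99 (adjusted p = 0.0163). Of the ligands, Bmp5 rose, from 6.69 and 6.97 in the tissue to 8.89, 9.32 and 8.76, while Bmp4 and Bmp6 fell by 1.12 and 1.25 and Bmp2 and Bmp7 were not called, Bmp2 except without both arrays of narrow range, when it was lower (adjusted p = 0.0248). The adjusted p of Bmp4 was 0.0576 without tissue replicate 2. The antagonist Chrdl1 read 11.07, 11.52 and 11.27 in ICC-DMP against 7.89 and 8.51 in the tissue, a difference of 3.09 ± 0.24 (adjusted p = 9.02e-05), and Nog, encoding noggin, read 6.73, 6.99 and 6.98 in ICC-DMP against 4.58 and 4.67 in the tissue, a difference of 2.27 ± 0.20 (adjusted p = 0.000166). Of the target and feedback genes 5 of 6 rose. Id1 read 9.74, 9.68 and 9.06 in ICC-DMP against 6.38 and 6.62 in the tissue, and 4.65, 4.98 and 4.89 in ICC-MY. Id3 read 10.67, 11.13 and 10.79 in ICC-DMP against 7.47 and 8.25 in the tissue, and 6.21, 7.15 and 6.43 in ICC-MY. Their differences from tissue were 2.99 ± 0.23 (adjusted p = 9.19e-05) and 3.003 ± 0.33 (adjusted p = 0.000621). Smad6 and Smad7 rose by 2.53 ± 0.38 (adjusted p = 0.00324) and 1.96 ± 0.20 (adjusted p = 0.000373). Id2 and the antagonist Grem1 rose by 1.70 and 1.76, and Id4, at 1.01, was called in the fits with the replicate block (adjusted p = 0.00694) and with the mean of probe sets (adjusted p = 0.0484), and by another probe set, at 1.48 (adjusted p = 0.000993). Grem1 lost its call without ICC-DMP replicate 1 or 2 or either tissue replicate, at adjusted p values from 0.0501 to 0.0666. Id2 lost its call without any 1 of the ICC-DMP replicates, ICC-MY replicate 3 or tissue replicate 1, at 0.0506 to 0.0989. Against ICC-MY, a comparison that shares the ICC-DMP arrays, the differences were 4.71 for Bmpr1b, 3.80 for Chrdl1, 4.65 for Id1, 4.27 for Id3 and 1.37 for Smad7. The count of 10 was 8 to 12 over the alternatives run. The 2 lower were 1 without tissue replicate 2, and 1 of the 15 members left without dim genes.

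**Figure D2:**
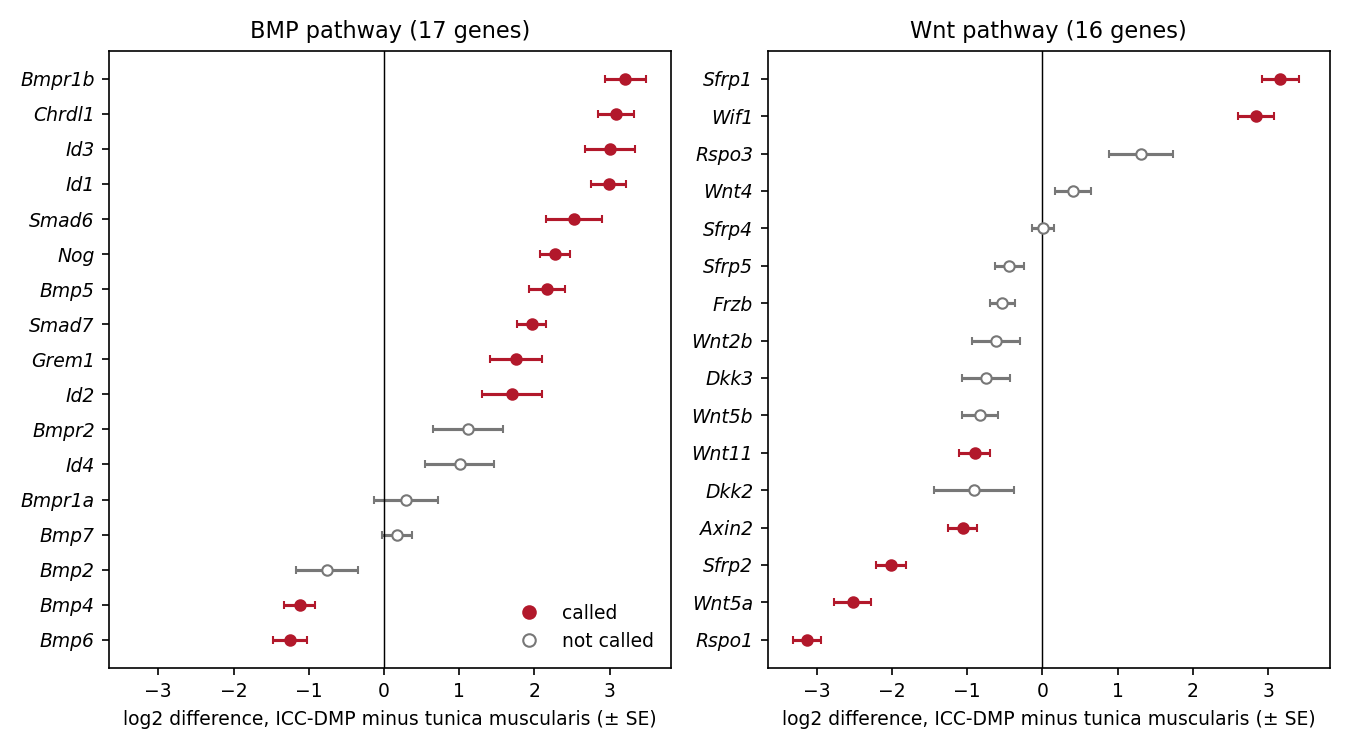
Difference in log2 expression, ICC-DMP mean minus tunica muscularis mean, for all 17 measured BMP pathway genes and all 16 measured Wnt pathway genes on the list (horizontal axis; bars are SE from the limma fit of all 8 arrays, 3 ICC-DMP against 2 tissue arrays). Filled points were called; in the BMP panel 10 lie right of 0 and 2 left of it, in the Wnt panel 2 right and 5 left.

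Wnt pathway genes divided differently, with 2 of 16 higher and 5 lower. The higher genes encode secreted inhibitors. Sfrp1 read 11.11, 11.04 and 11.28 in ICC-DMP against 7.81 and 8.16 in the tissue, a difference of 3.16 ± 0.25 (adjusted p = 9.67e-05), and Wif1 read 7.10, 7.28 and 7.71 in ICC-DMP against 4.35 and 4.70 in the tissue, a difference of 2.84 ± 0.24 (adjusted p = 0.000137); ICC-MY read 2.46, 2.53 and 2.94 in Wif1. Rspo1, which encodes a secreted enhancer of Wnt signalling, fell from 7.42 and 7.50 in the tissue to 4.28, 4.21 and 4.51. The ligand gene Wnt5a fell from 7.53 and 8.08 to 5.13, 5.58 and 5.13, the inhibitor gene Sfrp2 by 2.01, Axin2, a feedback target, by 1.06 and the ligand gene Wnt11 by 0.90. The lower genes were 3 of the 9 left without dim genes. They were also 3 without tissue replicate 1, when the adjusted p was 0.0611 for Axin2 and 0.164 for Wnt11. Wnt11 also lost its call without any 1 of the ICC-DMP replicates, without both arrays of narrow range and after quantile normalization, at 0.0647 to 0.104. In other growth factor families Fgfr2, a fibroblast growth factor receptor, rose by 2.30 ± 0.30 (adjusted p = 0.00157), and the largest falls on the list were those of Fgf9 and Fgf13, by 5.03 and 4.95. Fgf9 read 3.75, 3.75 and 3.64 in ICC-DMP against 8.41 and 9.06 in the tissue. For Fgf13 no other probe set was called. Of 9 Notch pathway genes 2 rose and 2 fell. Hey1 and Hes1, transcription factors that respond to Notch, rose by 2.57 ± 0.27 (adjusted p = 0.000531) and 2.18 ± 0.31 (adjusted p = 0.00235). Their relatives Hey2 and Heyl fell by 1.28 and 0.84; Heyl lost its call without any 1 of the ICC-DMP or tissue arrays, without ICC-MY replicate 2, with arrays centred on their medians and after quantile normalization, at adjusted p values from 0.0531 to 0.122. Class 3 semaphorins, secreted guidance cues, fell in 3 of 4 measured genes, by 4.32 in Sema3d, 2.64 in Sema3c and 1.82 in Sema3e. The guidance gene Ntn1 rose by 2.20 ± 0.31 (adjusted p = 0.00222).

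Matrix genes included 6 that rose and 11 that fell among 62 measured, with a median difference of -0.18. Adamts1, a secreted protease that cleaves proteoglycans, read 9.53, 9.70 and 9.65 in ICC-DMP against 5.69 and 6.18 in the tissue, a difference of 3.69 ± 0.27 (adjusted p = 6.14e-05). Thbs1, a thrombospondin like Thbs4, read 6.14, 6.41 and 5.91 in ICC-DMP against 3.77 and 3.60 in the tissue, a difference of 2.47 ± 0.24 (adjusted p = 0.000354). Col4a5, a basement membrane collagen chain, rose by 2.59 ± 0.41 (adjusted p = 0.00447), and the proteoglycan gene Bgn by 2.09 ± 0.31 (adjusted p = 0.00307). Col6a4, a collagen VI chain outside the list, was the matrix gene with the widest gap from both neighbours. It read 10.12, 10.05 and 9.85 in ICC-DMP against 6.07 and 6.25 in the tissue, and 5.43, 5.85 and 5.56 in ICC-MY, a difference from tissue of 3.84 ± 0.18 (adjusted p = 7.03e-06); its other probe set was not called. The falls were led by Col14a1, at -3.51 ± 0.46 (adjusted p = 0.00169), Col18a1, at -2.99 ± 0.21 (adjusted p = 5.33e-05), and the cross-linking enzyme Lox, at -2.89 ± 0.38 (adjusted p = 0.00171). The lower calls were 7 without any 1 of the ICC-DMP arrays, 18 with the replicate number as a block, 17 after quantile normalization, 19 without both arrays of narrow range and 7 with arrays centred on their medians.

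Adhesion genes counted 4 higher and 13 lower of 47. Chl1, a neural-type adhesion molecule of the L1 family, read 11.53, 12.04 and 11.59 in ICC-DMP against 8.82 and 10.09 in the tissue, a difference of 2.27 ± 0.37 (adjusted p = 0.0055). Cdh13, an atypical cadherin anchored by a lipid, read 8.62, 8.73 and 8.82 in ICC-DMP against 6.43 and 6.57 in the tissue, a difference of 2.22 ± 0.17 (adjusted p = 8.95e-05). Ncam1 rose by 1.33 ± 0.23 (adjusted p = 0.0068), and ICC-MY lay far below both at 6.86, 7.05 and 7.42. The cadherins Cdh2 and Cdh6 fell by 3.89 and 2.77, and L1cam, from the same family as Chl1, by 2.70. The gap junction genes Gja1 and Gjc1 were not called, at 0.66 ± 0.59 (adjusted p = 0.651) and 1.02 ± 0.38 (adjusted p = 0.147), but Gjc1 was with the replicate number as a block (adjusted p = 0.0181) and after quantile normalization (adjusted p = 0.00342). The higher calls were 7 with the replicate number as a block, after quantile normalization, and with the mean of all probe sets of a gene.

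Of 25 measured smooth muscle contractile genes 1 was called higher and 7 lower than in the coat, with a median difference of -0.64. The lower genes included Des, Ldb3, Cnn1, Casq2 and Myocd. Des, the intermediate filament desmin, read 7.74, 8.26 and 8.17 in ICC-DMP against 9.78 and 10.16 in the tissue, a difference of -1.92 ± 0.34 (adjusted p = 0.00778), and its adjusted p was 0.0518 without tissue replicate 2. Myocd, myocardin, a coactivator of muscle genes, read 7.57, 7.79 and 7.99 in ICC-DMP against 8.67 and 9.49 in the tissue, a difference of -1.30 ± 0.29 (adjusted p = 0.0231); its adjusted p was 0.091 and 0.0776 without ICC-DMP replicates 1 and 2 and 0.119 without tissue replicate 2. Ldb3, a Z-disc protein, differed by -1.64 ± 0.29 (adjusted p = 0.00814). Acta2, smooth muscle alpha-actin, read 13.14, 13.55 and 13.32 in ICC-DMP against 12.82 and 13.9998 in the tissue, and the difference was -0.07 ± 0.43 (adjusted p = 0.965); a dimmer Acta2 probe set was called lower, at -1.42 (adjusted p = 0.00206). Myh11, smooth muscle myosin heavy chain, read 10.90, 11.31 and 10.70 in ICC-DMP against 10.97 and 12.57 in the tissue, and the difference was -0.80 ± 0.45 (adjusted p = 0.381). Without tissue replicate 1 Myh11 was called lower, at -1.60 (adjusted p = 0.0285), as it was without both arrays of narrow range (adjusted p = 0.01), after quantile normalization (adjusted p = 0.0083) and by another probe set, at -1.25 (adjusted p = 0.0279). The ICC-DMP values lay between the tissue arrays in Acta2 and, for 1 of 3 arrays, in Myh11. ICC-MY were far lower in Myh11, at 7.44, 8.20 and 7.65, and 17 of the 25 genes were called higher in ICC-DMP than in ICC-MY, 68% against the 5.36% of all genes. The mean log2 value over the list was 9.77 to 9.97 in the ICC-DMP arrays, 7.75 to 8.42 in ICC-MY and 9.91 and 10.88 in the tissue. Cnn1, calponin, and Casq2 differed from the coat by -1.55 and -1.45 and from ICC-MY by 2.89 and 2.39. The 1 higher gene was Pln. The 7 lower calls were 4 without ICC-DMP replicate 1 or 2, 3 without tissue replicate 2, 13 after quantile normalization and 15 without both arrays of narrow range. Whether muscle RNA in the ICC-DMP samples, or transcripts of ICC-DMP themselves, gave these values was not tested.

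Markers of nerve cells and of the serosal lining were near the floor of the arrays in ICC-DMP. In these samples of whole RNA, fewer cells of a type and less RNA per cell cannot be told apart. All 11 mesothelial markers were lower, with a median difference of -4.49. Msln, mesothelin, read 3.31, 3.53 and 3.46 in ICC-DMP against 8.98 and 9.39 in the tissue. Of 26 enteric neuron markers 23 were lower and 0 higher, with a median difference of -4.14. Vip, the vasoactive intestinal peptide gene, read 2.99, 2.99 and 3.15 in ICC-DMP against 9.09 and 10.29 in the tissue, and Snap25, a synaptic membrane protein, read 2.67, 2.68 and 2.35 in ICC-DMP against 8.13 and 9.16 in the tissue. Ret, the receptor of enteric neurons and their precursors, read 4.15, 4.12 and 4.29 in ICC-DMP against 8.74 and 9.29 in the tissue, and 5.40, 5.86 and 5.70 in ICC-MY. Chat, the acetylcholine-synthesizing enzyme, was among the 3 markers not called, at 3.79, 4.02 and 4.14 in ICC-DMP against 4.08 and 3.82 in the tissue. Mean marker levels were 4.07 to 4.16 for neurons and 4.25 to 4.32 for mesothelium in the ICC-DMP arrays, against 7.51 and 7.86, and 8.71 and 8.93, in the tissue arrays.

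**Figure D3:**
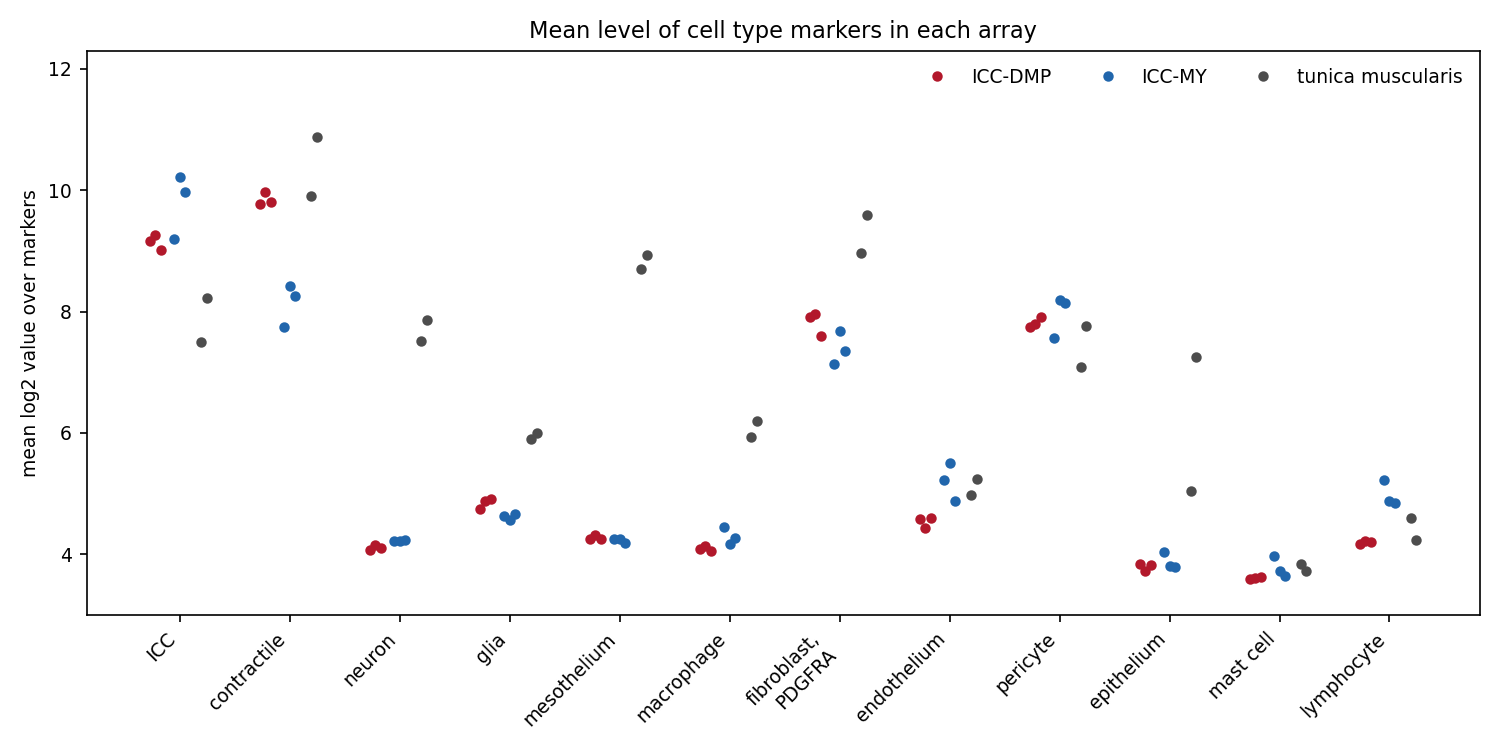
Mean log2 value over the measured markers of each cell type (vertical axis) in each array (points; 3 of each cell class and 2 of tissue). The tissue arrays lie above both cell classes for neurons, mesothelium and macrophages, while for contractile genes the ICC-DMP points lie at 9.77 to 9.97, between ICC-MY and the higher tissue array.

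Of 17 macrophage markers 13 were lower and 0 higher, with a median difference of -1.75. Csf1r, the receptor of macrophage colony-stimulating factor, read 5.57, 5.85 and 5.67 in ICC-DMP against 10.15 and 11.49 in the tissue, and Mrc1, the mannose receptor, read 3.11, 3.16 and 2.93 in ICC-DMP against 6.84 and 7.84 in the tissue. With dim genes removed 6 macrophage markers were left, of which 4 were lower. Of 10 glial and Schwann cell markers 4 were lower, among them Fabp7 by 3.27 and Mbp by 2.11, and Sox10, the defining glial factor, was not called at -0.95 ± 0.29 (adjusted p = 0.0805) but was with the replicate number as a block (adjusted p = 0.0162), with array weights (adjusted p = 0.048), without ICC-MY replicate 1 (adjusted p = 0.0409) and without tissue replicate 2, at -1.37 (adjusted p = 0.028). Fibroblast and PDGFRA cell markers counted 7 lower of 17. Efemp1, a fibulin, read 4.80, 4.76 and 3.63 in ICC-DMP against 10.05 and 11.24 in the tissue, and Cd34, a surface sialomucin, read 4.76, 4.37 and 3.60 in ICC-DMP against 7.87 and 8.37 in the tissue. Yet Pdgfra itself read 11.15, 11.35 and 10.78 in ICC-DMP against 9.99 and 11.54 in the tissue, with 8.39, 9.19 and 9.41 in ICC-MY, and was not called against the tissue (adjusted p = 0.81), nor was the matrix gene Dpt at -0.03 ± 0.45 (adjusted p = 0.984). Endothelial markers gave 1 higher and 4 lower of 15, and the lower count was 2 without any 1 of the ICC-DMP or tissue arrays. Vwf, von Willebrand factor, read 2.64, 2.95 and 3.11 in ICC-DMP against 5.29 and 6.15 in the tissue, and Plvap, a protein of endothelial fenestrae, read 9.003, 8.85 and 9.57 in ICC-DMP against 5.45 and 6.11 in the tissue, so the 2 genes moved in opposite directions. The defining endothelial gene Pecam1 read 2.90, 2.96 and 3.37 in ICC-DMP against 3.46 and 3.14 in the tissue and Cdh5 3.75, 3.41 and 3.73 in ICC-DMP against 4.16 and 4.06 in the tissue. Mast cell markers counted 0 calls among 11 by limma's test (1 lower without ICC-MY replicate 1, without tissue replicate 2, with the replicate number as a block, with the mean of probe sets and with a variance trend), with 1 at an unadjusted p under 0.05. All 11 had ICC-DMP and tissue means under 6, and 0 were left with dim genes removed. At values this low the array does not show whether these transcripts were present.

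Of 13 intestinal epithelial markers 5 were lower, and their levels differed between the tissue arrays themselves. Fabp2, the intestinal fatty acid binding protein, read 2.69, 2.62 and 2.62 in ICC-DMP against 7.08 and 11.38 in the tissue. Mean marker levels were 5.04 in tissue replicate 1 and 7.25 in tissue replicate 2, and 3.72 to 3.84 in ICC-DMP. The 5 calls were 9 without tissue replicate 1 or without both arrays of narrow range and 2 without any 1 of the ICC-DMP arrays.

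Immediate early genes were the group that stood highest over the coat. These genes encode transcription factors, phosphatases and other regulators that cells switch on within minutes of a stimulus, before new protein is made. Of 33 measured genes 24 were higher and 0 lower, 72.7% against 11%, with a median difference of 3.42. Mean levels over the list were 9.49, 9.63 and 9.69 in the ICC-DMP arrays, 7.74 to 8.38 in ICC-MY and 6.63 and 6.73 in the tissue. Against ICC-MY 25 of the 33 were called higher, against 5.36% of all genes. The labels do not say how the cells were kept and isolated before extraction, and its part in these values was not tested.

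Genes of the AP-1 transcription factor led the list. Fosb read 9.73, 9.65 and 10.34 in ICC-DMP against 3.31 and 3.26 in the tissue, and its difference was 6.63 ± 0.22 (adjusted p = 2.09e-06), or 98.8-fold. Junb read 8.33, 8.51 and 8.72 in ICC-DMP against 4.30 and 3.36 in the tissue, and Fos read 13.13, 13.68 and 13.39 in ICC-DMP against 9.61 and 10.34 in the tissue, with 11.85, 13.53 and 12.88 in ICC-MY. The AP-1 relatives Fosl1 and Fosl2 were not called, at 0.05 ± 0.18 (adjusted p = 0.942) and 0.35 ± 0.22 (adjusted p = 0.454). Atf3, a stress-induced bZIP factor, read 10.25, 10.75 and 10.39 in ICC-DMP against 5.06 and 4.93 in the tissue, a difference of 5.47 ± 0.33 (adjusted p = 2.18e-05). Nr4a1 and Nr4a2, orphan nuclear receptors, rose by 4.58 ± 0.28 (adjusted p = 2.38e-05) and 3.999 ± 0.35 (adjusted p = 0.000182), and the third member, Nr4a3, was not called by its brightest probe set, at 0.04 ± 0.17 (adjusted p = 0.945). Another Nr4a3 probe set was, at 2.39 (means of 8.04 against 5.64, adjusted p = 4.78e-05), as was the mean of probe sets, at 0.76 (adjusted p = 0.0148). Zfp36, which speeds the decay of cytokine messages, read 10.22, 10.35 and 10.65 in ICC-DMP against 6.10 and 5.27 in the tissue, and Dusp1, a phosphatase that switches MAP kinases off, read 13.10, 13.26 and 13.15 in ICC-DMP against 8.28 and 8.81 in the tissue. Both were higher in every ICC-DMP array than in any array of the other groups. Krüppel-like factors split, with Klf2 and Klf4 up by 3.36 ± 0.24 (adjusted p = 5.44e-05) and 2.39 ± 0.33 (adjusted p = 0.00203) and Klf6 not called at 1.01 ± 0.41 (adjusted p = 0.194); Klf6 was called with the replicate number as a block (adjusted p = 0.015), in the fit of the 5 arrays alone (adjusted p = 0.0166), without ICC-MY replicate 3 (adjusted p = 0.0316) and by 2 dimmer probe sets, at 0.98 and 0.70. Rgs2, a regulator of G protein signalling, was not called and read 9.63, 10.06 and 10.24 in ICC-DMP against 10.09 and 11.65 in the tissue; it was called lower without tissue replicate 1 (adjusted p = 0.0457), without both arrays of narrow range (adjusted p = 0.0185), after quantile normalization (adjusted p = 0.0267), with the mean of probe sets (adjusted p = 0.0375) and by another probe set, at -1.68 (adjusted p = 0.0176).

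**Figure D4:**
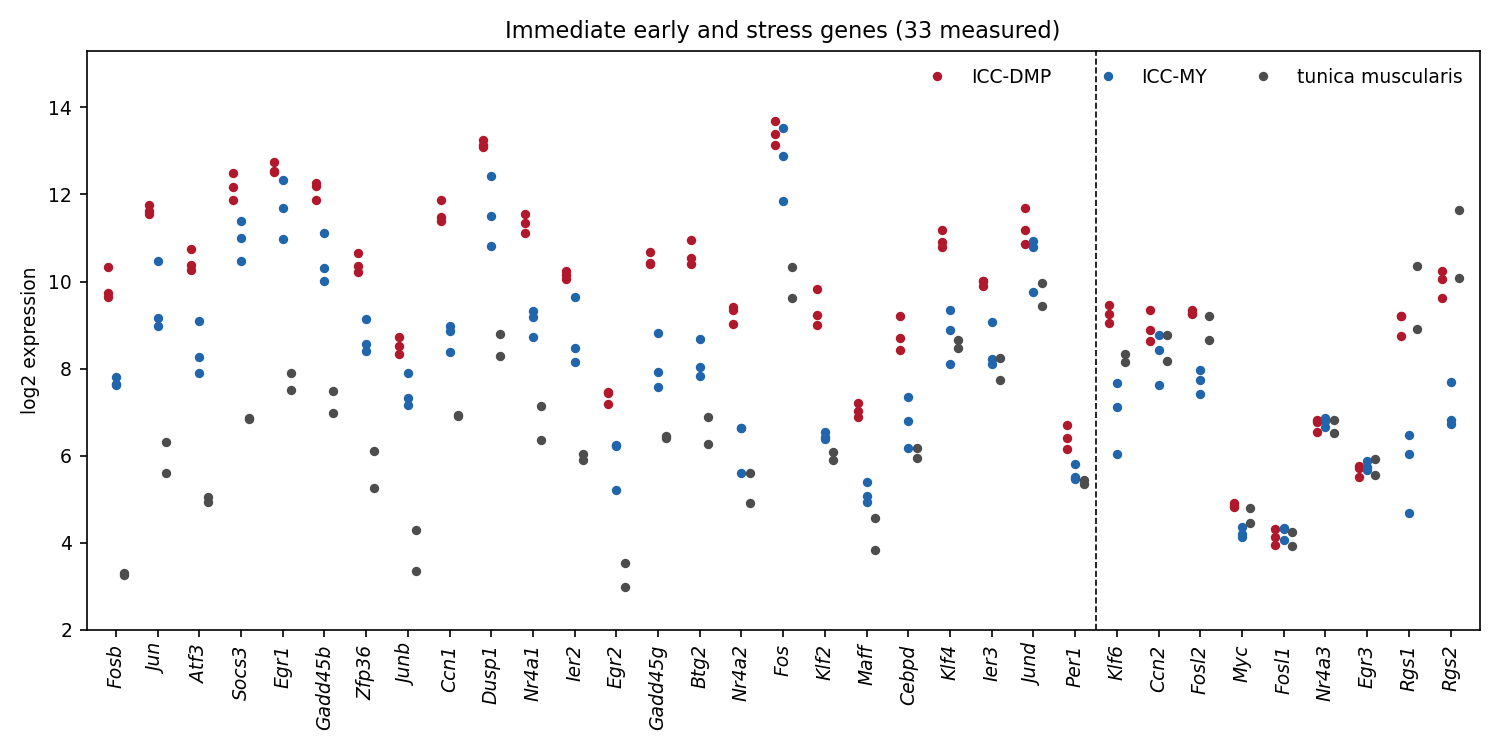
Log2 values of all 33 measured immediate early and stress genes in each array (vertical axis, log2 expression; genes ordered by the difference between ICC-DMP and tissue, from the largest at left). Points are arrays in the colours of the 3 groups; the 24 genes called higher stand left of the dashed line, and in Fosb, Atf3 and Socs3 the tissue arrays lie at or below 6.88 while ICC-DMP lie at 9.65 or above.

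Promoters of these genes are known to carry cyclic AMP response elements and serum response elements, so the windows from 250 bases before to 50 after the start site were searched. RefSeq windows (GRCm38.p6) were held for 24 of the 33 genes. The core of the cyclic AMP response element, TGACG on either strand, was in 15 of the 24 genes and in 20.8% of all 32851 windows, which is 23% of the 27025 genes with a window. The share of genes with the core was 62.5% here and 55.6% among the enteric neuron markers (10 of 18), nearly all of which fell. It was 54.5% among heat shock genes (6 of 11) and 28.6% among contractile genes (6 of 21). The full palindrome TGACGTCA, which contains the core on both strands, was in 3 of the 24 genes (Btg2, Dusp1 and Maff) and in 2.03% of all genes with a window. The CArG box, the core of serum response elements, was in 2 of the 24 genes (Egr2 and Zfp36), in 5 of 21 contractile genes and in 1.81% of all genes with a window. The AP-1 site TGACTCA was in 0 of the 24 genes and in 5.95% of all genes with a window. The GC-only motif GGGCGG was in 87.5% of these genes, 100% of heat shock genes and 38.2% of all genes with a window. It was in 61.9% of contractile genes and 61.1% of enteric neuron markers. The part of base composition in these shares was not tested. Motifs were chosen after expression values were seen; a match describes letters and not binding.

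Shown are the 250 bases before the start site of 4 genes with the core in capitals, from genes whose values stand above, and of 1 gene with the CArG box in capitals; each runs 5′ to 3′ in the direction of its gene. Fosb lies at chr7:19310046-19310295 (- strand), Atf3 at chr1:191183334-191183583 (- strand), Nr4a1 at chr15:101266596-101266845 (+ strand), Dusp1 at chr17:26508473-26508722 (- strand) and Zfp36 at chr7:28379229-28379478 (- strand).
Fosb: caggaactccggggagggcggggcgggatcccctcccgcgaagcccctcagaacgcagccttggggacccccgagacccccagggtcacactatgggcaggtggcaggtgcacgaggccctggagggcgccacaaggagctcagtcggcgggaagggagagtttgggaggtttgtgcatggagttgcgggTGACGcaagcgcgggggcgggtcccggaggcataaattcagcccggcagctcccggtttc
Atf3: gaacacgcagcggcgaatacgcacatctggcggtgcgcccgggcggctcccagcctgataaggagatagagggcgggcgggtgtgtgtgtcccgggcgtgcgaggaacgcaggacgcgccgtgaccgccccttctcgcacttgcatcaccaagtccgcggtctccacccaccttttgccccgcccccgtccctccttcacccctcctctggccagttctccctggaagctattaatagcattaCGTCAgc
Nr4a1: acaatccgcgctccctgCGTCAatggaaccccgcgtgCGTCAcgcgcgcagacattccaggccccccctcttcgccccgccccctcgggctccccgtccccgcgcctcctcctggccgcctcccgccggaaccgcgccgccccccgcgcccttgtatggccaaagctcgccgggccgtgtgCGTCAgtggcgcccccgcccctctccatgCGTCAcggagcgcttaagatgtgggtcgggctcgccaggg
Dusp1: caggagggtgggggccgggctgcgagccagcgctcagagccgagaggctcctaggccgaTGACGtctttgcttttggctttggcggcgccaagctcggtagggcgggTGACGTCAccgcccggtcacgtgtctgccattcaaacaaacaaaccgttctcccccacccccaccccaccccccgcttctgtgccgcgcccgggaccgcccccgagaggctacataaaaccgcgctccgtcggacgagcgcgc
Zfp36: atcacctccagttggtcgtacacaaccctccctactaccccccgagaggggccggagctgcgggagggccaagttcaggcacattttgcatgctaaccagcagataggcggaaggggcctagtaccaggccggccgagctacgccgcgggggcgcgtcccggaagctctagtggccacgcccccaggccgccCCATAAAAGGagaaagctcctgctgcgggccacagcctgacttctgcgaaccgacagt
Nr4a1 holds 4 cores, starting 233, 213, 69 and 40 bases before the start site, and Dusp1 holds 3, of which the pair at 143 and 140 overlaps in the full palindrome. Fosb holds 1, at 60 bases, and Atf3 holds 1, at 7 bases before the start. The CArG box of Zfp36 starts 58 bases before the start.

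Heat shock genes rose in part. Of 14 measured 5 were higher and 0 lower, and 3 were higher without tissue replicate 1. Up to 2 were lower, after quantile normalization and without both arrays of narrow range. Hspa1a, an inducible HSP70, read 12.18, 12.80 and 12.49 in ICC-DMP against 6.89 and 7.69 in the tissue, a difference of 5.20 ± 0.43 (adjusted p = 0.000125), and its near-identical neighbour Hspa1b, whose probe sets can share signal with it, rose by 2.89 ± 0.49 (adjusted p = 0.00642). Bag3, an HSP70 co-chaperone, rose by 1.20 ± 0.16 (adjusted p = 0.00173). The constitutive Hspa8 and the reticulum chaperone Hspa5 were not called, at 0.73 ± 0.47 (adjusted p = 0.479) and 1.11 ± 0.47 (adjusted p = 0.219), by their brightest probe sets. Hspa5 was with the replicate number as a block (adjusted p = 0.0257) and after quantile normalization (adjusted p = 0.00922). Hspa8 was with the mean of probe sets, at 2.25 (adjusted p = 0.00912), and after quantile normalization (adjusted p = 0.0366), and 1 of its 3 other probe sets was called higher, at 6.40 (means of 10.41 against 4.003, adjusted p = 2.78e-05). Feedback genes of the MAP kinase pathway and ETS factors counted 9 higher and 1 lower (Il17rd, by 1.14) of 18, 55.6% against 11%, with a median difference of 1.13. Il17rd lost its call without any 1 of the ICC-DMP replicates or tissue replicate 2 and with the mean of probe sets, at adjusted p values from 0.0533 to 0.135. Etv5, an ETS factor of the Etv1 family, read 7.94, 7.71 and 8.05 in ICC-DMP against 4.86 and 4.88 in the tissue, a difference of 3.03 ± 0.21 (adjusted p = 5.44e-05), and its 2 other probe sets were not called. Dusp4 and Spry4, which damp MAP kinase signalling, rose by 2.53 ± 0.42 (adjusted p = 0.00539) and 1.80 ± 0.22 (adjusted p = 0.00118). Spry2 and Etv4 were not called, at -0.07 ± 0.26 (adjusted p = 0.942) and -0.10 ± 0.17 (adjusted p = 0.86).

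ICC-DMP also read lowest of the 3 groups in some genes. Dsp, which encodes the desmosomal protein desmoplakin, read 4.58, 5.10 and 4.37 in ICC-DMP against 7.77 and 8.87 in the tissue and 9.22, 10.39 and 10.17 in ICC-MY. Its difference was -3.64 ± 0.43 (adjusted p = 0.000953) from tissue and -5.24 ± 0.39 (adjusted p = 0.000102) from ICC-MY. Sgpp2, a sphingosine-1-phosphate phosphatase, read 4.46, 4.16 and 3.76 in ICC-DMP against 7.44 and 7.82 in the tissue and 8.74, 9.53 and 9.46 in ICC-MY. Lgals3, galectin-3, read 4.85, 4.59 and 4.47 in ICC-DMP against 9.02 and 8.99 in the tissue and 7.25, 7.39 and 7.57 in ICC-MY, a difference from tissue of -4.37 ± 0.17 (adjusted p = 4.07e-06). Mest, an imprinted gene, read 4.83, 4.69 and 4.30 in ICC-DMP against 7.42 and 7.22 in the tissue and 7.66, 8.07 and 7.34 in ICC-MY. Fabp4, a fatty acid binding protein of fat cells, capillaries and macrophages, read 3.58, 3.55 and 2.89 in ICC-DMP against 6.61 and 8.27 in the tissue and 7.60, 8.28 and 5.90 in ICC-MY. These 5 genes were picked among those called lower than both other groups with no overlap of arrays. That no ICC-DMP array reached the lowest array of the other groups was therefore fixed by the choice. Dsp and Sgpp2 were at their highest in ICC-MY, Lgals3 in the tissue.

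**Figure D5:**
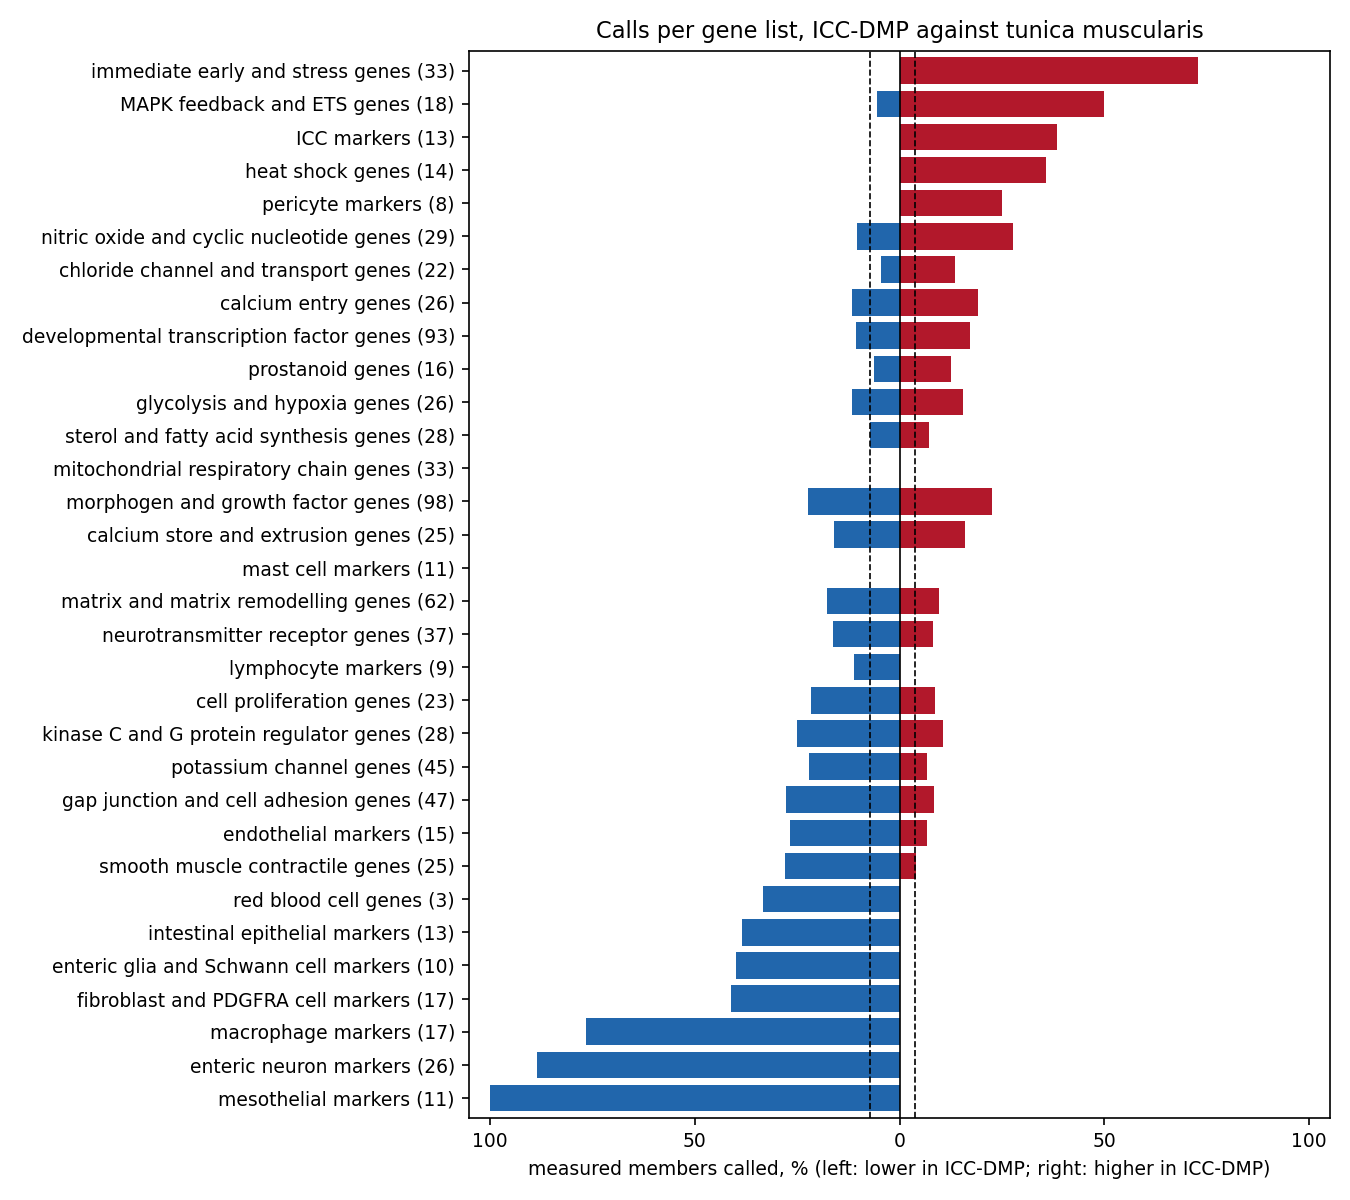
Share of measured members of each of the 32 gene lists called higher (right) or lower (left) in ICC-DMP than in tunica muscularis, in percent (horizontal axis), with the number measured beside each name. Dashed lines mark the shares over all 18193 genes, 3.72% higher and 7.32% lower; immediate early genes reach 72.7% higher, and mesothelial and neuron markers 100% and 88.5% lower.

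Energy metabolism gave few calls in the mitochondria and more around glucose. Of 33 measured genes of the mitochondrial respiratory chain 0 were called by limma's test, 2 had an unadjusted p under 0.05, and the median difference was 0.03. Up to 1 higher and 3 lower calls were made among them in the alternatives. Glycolysis and hypoxia genes counted 4 higher and 3 lower of 26, 26.9% against 11%, with a median difference of 0.21. Vegfa, the vascular endothelial growth factor, read 8.01, 7.86 and 8.25 in ICC-DMP against 6.28 and 5.33 in the tissue, a difference of 2.24 ± 0.27 (adjusted p = 0.00101); its other probe set was not called. Hk2, the hexokinase that traps glucose in the cell, read 8.32, 7.99 and 7.65 in ICC-DMP against 6.43 and 6.31 in the tissue, and 4.99, 4.82 and 4.62 in ICC-MY, so that the cell classes lay on opposite sides of the coat. Slc2a1, a glucose transporter, rose by 1.44 ± 0.18 (adjusted p = 0.00125), while Ndrg1, a gene induced by low oxygen, fell from 8.69 and 9.19 in the tissue to 6.78, 6.45 and 7.41.

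Of 23 measured genes of cell division 2 were called higher and 5 lower, with a median difference of -0.72 against -0.04 over all genes. Cdkn1a, an inhibitor of cyclin-dependent kinases, read 9.07, 8.81 and 9.67 in ICC-DMP against 7.30 and 7.19 in the tissue, a difference of 1.94 ± 0.25 (adjusted p = 0.00151), and its other probe set was not called. Ccna2, cyclin A2, read 8.34, 8.35 and 8.17 in ICC-DMP against 9.59 and 9.55 in the tissue, a difference of -1.29 ± 0.21 (adjusted p = 0.00554). In both genes ICC-MY were close to ICC-DMP, with differences of 0.21 ± 0.22 (adjusted p = 0.737) and 0.07 ± 0.19 (adjusted p = 0.924). The count of lower genes ran from 1 to 10 over the alternatives: it was 3, 2 and 1 without ICC-DMP replicates 1, 2 and 3, 1 and 2 without tissue replicates 1 and 2, 10 and 3 without ICC-MY replicates 1 and 2, 10 in the fit of the 5 arrays alone, 9 after quantile normalization, 3 with arrays centred on their medians, and 8 without both arrays of narrow range or with the replicate number as a block. The higher count was 1 without any 1 of the ICC-DMP or tissue arrays or ICC-MY replicate 2.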

How the data were processed

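RNA was extracted with Trizol and RNeasy columns, about 50 ng was amplified in 2 rounds and hybridised to 1-colour mouse arrays, per the labels' protocols. The authors deposited 1 log2 value per probe set and array. The submitters' processing notes name RMA and limma, without versions. RMA as usually run corrects background, normalizes between arrays and summarises probes. Whether all arrays were normalized together is not given in the labels. The deposited arrays did not share 1 distribution, with 99th percentiles from 10.51 (ICC-MY replicate 1) to 11.80 (tissue replicate 2). The scanner files were not used here, so the background level of each array is unknown and a low log2 value is not proof of absence. No read depth applies; the number of arrays (3 and 2) limits the precision. Of 45101 deposited probe sets 64 are controls, 34945 name 1 gene in the platform annotation, 932 name several and 9160 name none. The RefSeq table held the gene identifier of 34741 of those naming 1 gene, and 0 symbols changed. Each of 18193 genes was read from its brightest probe set, by mean over all 8 arrays; 9010 genes had a choice. Of 88 genes called and named in the report with several probe sets, 56 had another with the same call, 0 had one with the opposite call, and for 32 no other was called. Besides genes where this is given above, the 32 include Atp2a3, Axin2, Cacna1d, Calcrl, Cdh6, Des, Grik1, Hoxb4, Il17rd and Kcnab1. They also include Kcnip1, L1cam, Ldb3, Myocd, Ntn1, Plcb1 and Ret. Of 46 named genes not called, 14 had another probe set that was, as given beside them.

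All 8 arrays were fitted in 3 groups with limma 3.58.1 in R 4.3.3 (lmFit, contrasts, eBayes; 2-sided, Benjamini-Hochberg over all genes, threshold 0.05), with 5 residual and 3.17 prior degrees of freedom. On data simulated for ICC-DMP against tissue in this design, 1, 18, 41 and 46 of 50 genes were called at true log2 changes of 0.5, 1, 2 and 3. The alternatives were the 5 arrays alone, a replicate block, quantile normalization, median centring, removal of dim genes, the mean of probe sets or every probe set, array weights, a variance trend, leaving out both arrays of narrow range (ICC-MY replicate 1 and tissue replicate 1) and leaving out each array. Replicate numbers come from the sample titles. Deviations from group means correlated at 0.16 to 0.61 in the 7 same-numbered pairs and at -0.61 to 0.17 in the differently numbered pairs. The 2 tissue arrays mirror each other because their deviations are taken from their own mean. No label says what the numbers stand for. The main fit did not use them, so the printed p-values ignore any pairing except where the replicate number as a block is named.

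The members and the 32 gene lists were chosen with earlier results of these data known. Genes named were drawn from the 4 markers, the 15 largest non-overlapping calls in each direction and up to 6 called members of each list. Others came from genes called in the same direction against both tissue and ICC-MY, with no overlap of arrays in either comparison. Of these the 15 in each direction with the largest lesser difference were taken. List members accounted for as not called were added. Not every gene of these sets is named. Among the 15 largest rises Usp53, Jun, Egr1, Gadd45b, Ccn1 and Stat3 are left out. Among the 15 largest falls several neuron, mesothelial and epithelial markers are left out. Further list members, the BMP, Wnt and Hox groups and the motifs were picked after values were seen. Of 948 list entries 881 were measured, 9 of them through a synonym. Promoter sequences are those of RefSeq (GRCm38.p6).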

Additional observations from a re-analysis of the deposited data

Results flagged for a closer look

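The results here are genes for which ICC-DMP and ICC-MY were called in opposite directions against the same tissue arrays. Each was also called in the ICC-DMP minus ICC-MY contrast of the limma fit. Genes picked in this way differ between the classes by both gaps from the tissue added together, so that call is no further test. The difference between the classes is given on the log2 scale, 3 against 3 arrays.

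Genes higher than tissue in ICC-DMP and lower in ICC-MY formed the larger set of those named. For receptors and signalling proteins the difference between the classes was 4.92 for Gria1, 2.74 for Htr4, 2.31 for Ptgir, 4.17 for Gna14, 2.82 for Pde3b, 4.30 for Gem and 3.60 for Pln. For BMP genes it was 3.54 for Bmp5, 4.71 for Bmpr1b, 4.46 for Grem1, 4.65 for Id1, 3.35 for Id2 and 4.27 for Id3. The Wnt inhibitor gene Wif1 differed by 4.72. The transcription factor genes Foxf2 and Sox11 differed by 3.53 and 3.75, and the adhesion genes Chl1 and Ncam1 by 4.19 and 4.02. The anion exchanger gene Slc26a7 differed by 4.81 and the hexokinase gene Hk2 by 3.18.

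In the opposite direction, lower than tissue in ICC-DMP and higher in ICC-MY, stood Dsp at -5.24 and Sgpp2 at -5.12.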

How the results depend on the processing

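Against the 2009 genes called, 677 higher and 1332 lower, quantile normalization called 3093 (1506 higher and 1587 lower), removal of dim genes 1335 (578 and 757, with 8608 genes tested), and leaving out both arrays of narrow range 2834 (674 and 2160). Testing every probe set in place of 1 per gene called 3977, with 1844 higher and 2133 lower, and of these calls 2945 passed 2-fold against 1560. The share of calls that were higher was 33.7%, and became 48.7% with quantile normalization, 43.3% without dim genes, 23.8% without both arrays of narrow range, 23% without tissue replicate 1 and 42% without tissue replicate 2. Leaving out 1 array gave 1264 to 2480 calls, 395 to 887 higher, 837 to 1593 lower and 1169 to 1680 past 2-fold. Calls were 1264 without ICC-DMP replicate 1 and 1296 without ICC-DMP replicate 2. The fit with the replicate number as a block called 2853 genes, 993 higher and 1860 lower; of genes named in the report it changed no other call than those given there. The other settings called 1899 to 2505 genes. The median over all genes was -0.04 and moved to 0.06 with quantile normalization and 0.05 with centring.

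Ano1 kept its direction throughout, at 2.09 but no longer called with a variance trend (adjusted p = 0.0622), and at 1.35 to 2.82 when an array was left out, with adjusted p values from 0.00875 to 0.171. Of 149 genes named in the report and called, 134 had a value under all 17 alternatives and 124 of these kept the call in each; 15 were dim and had a value in 16, and 13 of these kept the call in each. The other 12 are given with their values in the report, and 0 reversed. Of 46 genes named as not called, 18 were called in at least 1 alternative. Genes near the floor of the arrays have no measured distance below it, so falls to that level may be larger than printed. The tissue group has 2 arrays, and the cause of the shifts between settings was not tested.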

Other observations

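In lists not described above the counts of called genes changed when 1 array was left out, which also leaves the test fewer arrays. The shares called were 18.2% of chloride channel and transport genes, 25% of pericyte markers and 14.3% of sterol and fatty acid synthesis genes. They were 11.1% of lymphocyte markers and 33.3% of red blood cell genes, against 11% of all genes. Chloride channel and transport genes counted 3 higher (Ano1, Ano10 and Slc12a7) and 1 lower (Slc4a4) of 22; the higher count was 0 without any 1 of the ICC-DMP arrays or tissue replicate 1 and 1 without ICC-MY replicate 2, and the lower count was 2 without tissue replicate 1. Both pericyte markers called of 8 measured, Pdgfrb and Cspg4, were higher; the count was 1 without any 1 of the ICC-DMP arrays or tissue replicate 2 and 0 without tissue replicate 1. Sterol and fatty acid synthesis genes counted 2 higher (Elovl6 and Scd1) and 2 lower (Elovl7 and Fads2) of 28; the higher count was 1 without any 1 of the ICC-DMP or tissue arrays, 4 without ICC-MY replicate 1 and 5 with the replicate number as a block, and the lower count was 1 without ICC-DMP replicate 1 or 2, ICC-MY replicate 2 or 3, or either tissue replicate. Of 9 lymphocyte markers Ptprc was lower, and the count was 0 without any 1 of the ICC-DMP or tissue arrays. Of 3 red blood cell genes Alas2 was lower, and the count was 0 without any 1 of the ICC-DMP arrays or tissue replicate 1.

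Among the 9160 probe sets that the platform annotation used here leaves unnamed, 1279 were called higher and 144 lower in ICC-DMP, 15.5% in all. Among the named genes 677 were called higher and 1332 lower, but these are counts of genes, each read from its brightest probe set. They are therefore not directly comparable with counts of probe sets. When every probe set was tested in place of the brightest of each gene, 1844 were called higher and 2133 lower.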
